A study of Mus musculus with 18 samples.

Results

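The genes described here are 48 mouse interferon-stimulated and antigen presentation genes, chosen by name from the 54532 genes of a count table. Their values did not enter the rule, though earlier results of these data were known when the names were chosen. All 48 had at least 1 count in the 18 libraries and 43 of them passed the filter on low counts that left 14317 genes for testing. The libraries came from 10T1/2 cells, a mouse fibroblast line that can be turned towards adipocytes and that the labels call mesenchymal stem cells, with 3 libraries in each of 6 groups taken from confluent cultures. The groups were WT cells, FOXS1 KO clone 1 and FOXS1 KO clone 2, each left uninduced or stimulated by TGF-β1 (1 nM, 12 h) followed by 48 h in DMII. DMII, which drives adipogenesis, holds indomethacin, insulin, dexamethasone and 3-isobutyl-1-methylxanthine. Every stimulated library had both treatments, so the parts played by TGF-β1, by the components of DMII and by the time in culture cannot be told apart. The paper also describes overnight serum starvation before TGF-β1, and DMII in a medium other than the growth medium. Whether uninduced cells shared these steps is not stated in its text, and their part cannot be told apart either. Each KO clone was grown from a single cell after CRISPR-Cas9 editing of the *Foxs1* exon with a pair of guide RNAs and puromycin selection, so that KO and clone of origin cannot be told apart within 1 clone. The labels name no added interferon in any group, and they do not say whether libraries of a group came from separate cultures, so that p-values measure the spread between these libraries, which may be technical.

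Interferons act through receptors on the cell surface that switch on JAK kinases and STAT transcription factors. A complex that holds STAT2 and IRF9 binds the interferon-stimulated response element (ISRE), while the gamma-activated site (GAS) answers to interferon gamma, and the genes switched on through them sense and block viruses. Many of the same stimuli raise the immunoproteasome, which cuts proteins to peptides, the TAP transporter, which carries peptides into the endoplasmic reticulum, and MHC class I, which displays them to T cells. Fibroblasts hold a low level of this programme without added interferon.

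The library totals ran from 15576685 to 42005596 counts, and levels are given in CPM, counts relative to the TMM-adjusted library total. The targeted gene did not show the edit in its total count. *Foxs1*, a forkhead transcription factor, was at 1.81, 3.25 and 1.64 CPM in uninduced and 3.13, 2.55 and 1.85 CPM in stimulated WT libraries. Libraries labelled clone 1 held 26.7, 27.1 and 23.4 CPM uninduced and 53.6, 52.9 and 56.8 CPM stimulated, and those labelled clone 2 held 21.1, 22.9 and 23.9 CPM and then 38.8, 37.99 and 42.8 CPM. All clone libraries lay above all WT libraries. The paper reports disruption of the locus by sequencing of genomic DNA, and western blots in which both clones had lost FOXS1 protein. Total counts of RNA measure neither of these, and the groups are named by their labels throughout. The fibroblast collagen gene *Col1a1* had 9426 to 14852 CPM in the means of the uninduced groups, and the summed level of 8 fibroblast markers was 29536 to 31769 CPM in uninduced WT, 30054 to 30864 CPM in clone 1 and 32111 to 33301 CPM in clone 2. Of the 8, *Pdgfra* and *Lum* were called lower in both uninduced clones, *Thy1* was higher in clone 1 and lower in clone 2 (59.6, 184 and 0.616 CPM in WT, clone 1 and clone 2), and *Dcn* was higher in clone 2. With stimulation *Dcn* went from 62.5 to 6.04 CPM and *Lum* from 105 to 10.4 CPM in WT. The summed level of 4 adipocyte markers, *Adipoq*, *Plin1*, *Cidec* and *Fabp4*, was 0.293 to 1.22 CPM in stimulated WT, 30.5 to 42.96 CPM in clone 1 and 2.71 to 4.64 CPM in clone 2, against 1.57 to 2.096 CPM, 1.18 to 1.86 CPM and 2.04 to 2.39 CPM in uninduced cells. *Fabp4* was the largest part in stimulated clone 1, at 16.3, 25.04 and 19.9 CPM. *Adipoq* did not follow the sum, with 0.1597, 0.3687 and 0.0911 CPM in stimulated clone 1. In clone 2 *Adipoq* went from 1.0038, 0.93 and 0.9275 to 0.2241, 0 and 0.1203 CPM. The summed level of 9 immune cell markers was 0.9901 to 1.99 CPM in uninduced WT, 5.696 to 7.07 CPM in clone 1 and 6.05 to 6.55 CPM in clone 2, and after stimulation 0.636 to 0.734 CPM, 0.692 to 0.811 CPM and 0.448 to 1.44 CPM. Of these markers, *Ptprc*, *Tyrobp* and *Cd3e* had no count in any library, and *Lyz2*, a lysozyme gene of macrophages, was at 0.731, 5.59 and 4.65 CPM in uninduced WT, clone 1 and clone 2. The part of any of these markers in the results was not tested.

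Promoter sequence was taken from RefSeq for GRCm38.p6, where 37 of the 48 genes matched and had 45 windows of 250 bases before to 50 bases after a transcription start. The ISRE core, GAAA followed by 2 bases of any kind and GAAA again, read on both strands, occurred in 16 of these windows (35.56%) against 3.443% of all 32851 promoter windows of the same length. The GAS core TTCNNNGAA, which reads the same on both strands, occurred in 10 windows (22.22%) against 8.298% of all windows, and 5 windows held both. Matches may overlap each other, as the 3 in *Isg15* do. A match describes the letters of the window and not binding of a factor. *Dhx58*, *Iigp1*, *Mx1*, *Mx2*, *Nlrc5*, *Parp14*, *Parp9*, *Rtp4*, *Tap2*, *Usp18* and *Zbp1* had no window in the table. The last 200 bases before the start are shown for 6 genes on which the results turn, each 5′ to 3′ along its gene, with ISRE letters in capitals in *Isg15*, *Ifit1*, *Ifit3*, *Gbp2* and *B2m* and GAS letters in capitals in *Irf1*.
Isg15 (chr4:156200819-156201018, minus strand): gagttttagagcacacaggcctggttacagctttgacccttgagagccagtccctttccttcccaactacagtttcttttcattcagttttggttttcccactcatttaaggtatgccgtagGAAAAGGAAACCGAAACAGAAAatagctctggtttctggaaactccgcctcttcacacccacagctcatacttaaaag
Ifit1 (chr19:34640689-34640888, plus strand): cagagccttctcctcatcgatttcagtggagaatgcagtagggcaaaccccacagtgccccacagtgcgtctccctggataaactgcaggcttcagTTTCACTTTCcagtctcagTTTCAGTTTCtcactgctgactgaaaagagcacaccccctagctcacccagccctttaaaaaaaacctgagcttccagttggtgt
Ifit3 (chr19:34583329-34583528, plus strand): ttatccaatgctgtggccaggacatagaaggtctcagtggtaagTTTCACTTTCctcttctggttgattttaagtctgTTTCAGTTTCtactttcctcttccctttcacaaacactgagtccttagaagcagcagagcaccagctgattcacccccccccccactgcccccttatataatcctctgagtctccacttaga
Gbp2 (chr3:142620463-142620662, plus strand): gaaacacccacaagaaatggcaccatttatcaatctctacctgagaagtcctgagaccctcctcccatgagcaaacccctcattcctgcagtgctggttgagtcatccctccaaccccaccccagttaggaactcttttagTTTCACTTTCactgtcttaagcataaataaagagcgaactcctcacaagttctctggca
B2m (chr2:122147487-122147686, plus strand): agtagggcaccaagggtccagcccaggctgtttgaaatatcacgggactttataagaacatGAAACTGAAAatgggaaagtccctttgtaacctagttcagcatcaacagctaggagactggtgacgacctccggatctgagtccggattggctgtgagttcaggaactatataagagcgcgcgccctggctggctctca
Irf1 (chr11:53769814-53770013, plus strand): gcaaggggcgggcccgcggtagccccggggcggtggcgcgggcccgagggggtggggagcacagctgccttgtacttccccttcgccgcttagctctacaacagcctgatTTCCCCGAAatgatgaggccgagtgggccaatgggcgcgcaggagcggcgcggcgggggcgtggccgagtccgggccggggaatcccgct

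**Figure D1:**
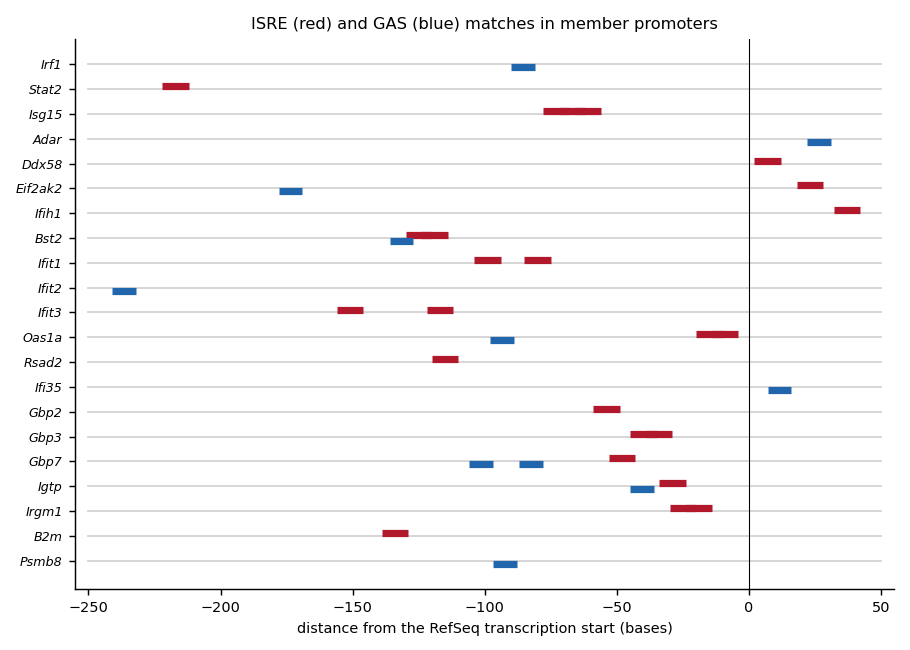
Position of ISRE matches (red) and GAS matches (blue) in RefSeq promoter windows of the 21 genes with a match, in bases from the transcription start at 0. The 3 overlapping ISRE matches of *Isg15* lie between -78 and -57, and the single ISRE match of *Gbp2* between -59 and -50.

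The first comparison asked how the programme changed when cells of each genotype were given TGF-β1 + DMII. Most of it fell in all of them. A DEG was called at a Benjamini-Hochberg adjusted p below 0.05 in edgeR's quasi-likelihood test and an absolute log2 fold change above 1. In WT cells 29 of the 43 tested genes fell and 1 rose, where 19.9% of all genes tested were called, 13.6% lower and 6.25% higher. In clone 1, 35 fell and 1 rose (16.7% of all genes called, 10.7% lower and 5.95% higher), and in clone 2, 31 fell and 2 rose (17.7% called, 11.2% lower and 6.46% higher). The median log2 fold change of the 43 genes was -2.22 in WT, -2.38 in clone 1 and -1.81 in clone 2, beside medians over all genes of -0.04, -0.02 and -0.02. These 3 responses share no library, and 24 of the 43 genes fell in each of them, a pattern that 5.70% of all genes tested had. The summed level of the 48 genes went from between 1197 and 1207 CPM to between 530.0 and 531.5 CPM in WT libraries, from between 1712 and 1904 CPM to between 795 and 805 CPM in clone 1, and from between 1352 and 1356 CPM to between 655 and 689 CPM in clone 2. The largest parts of this sum were *B2m*, called in no response, and *Tapbp*, at 345 and 239 CPM in uninduced WT. In bulk RNA, fewer cells holding a transcript and less transcript in each cell cannot be told apart.

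**Figure D2:**
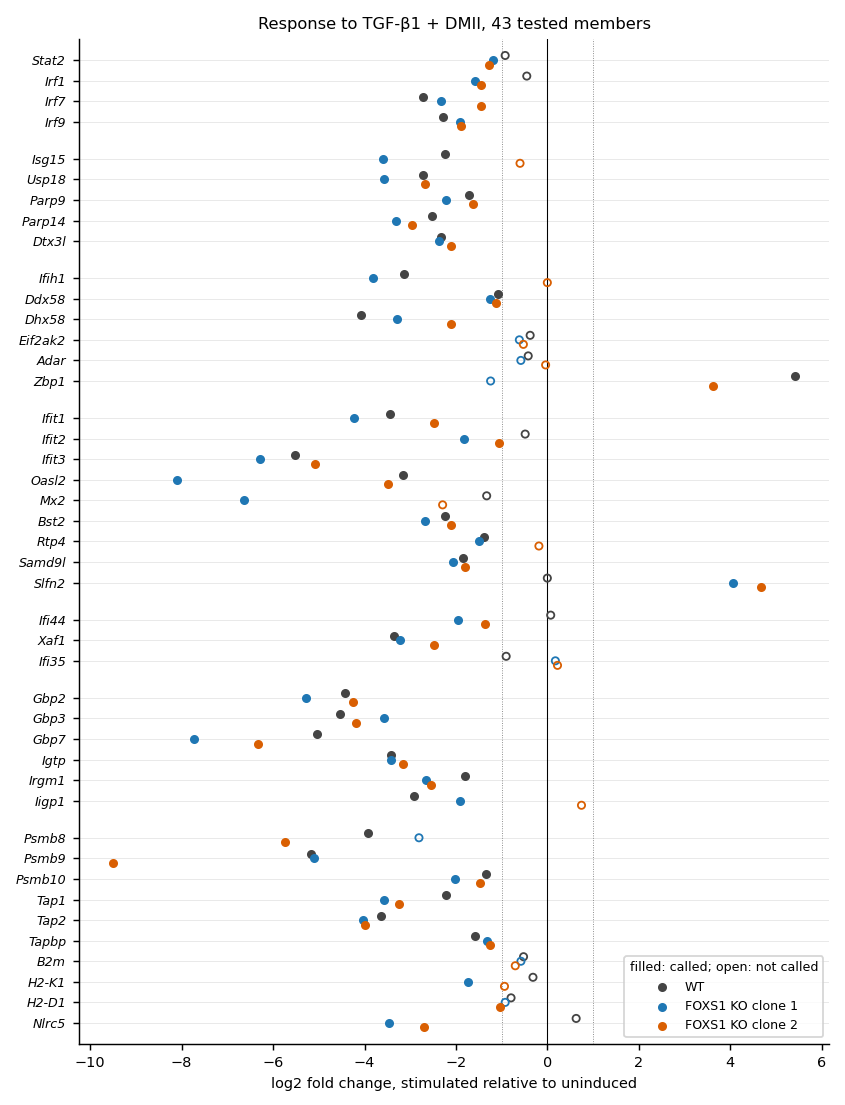
Log2 fold change of stimulated against uninduced libraries for the 43 tested genes, grouped by role, in WT (grey), clone 1 (blue) and clone 2 (orange), with filled points for called DEGs and dotted lines at an absolute log2 fold change of 1. Most points lie left of -1 in all 3 genotypes, while *Slfn2* and *Zbp1* have called points to the right, and points of genes with no count in a group (*Psmb8*, *Psmb9*, *Gbp7*, *Oasl2*, *Mx2* and *Slfn2*) have a size that depends on the model's prior count.

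Among the transcription factors, *Irf7* and *Irf9* fell in all 3 genotypes and *Stat2* and *Irf1* in both clones. *Irf9*, the DNA-binding partner of STAT2, was at 36.9, 36.8 and 33.3 CPM in uninduced WT libraries and 7.48, 6.997 and 7.49 CPM after stimulation. It was at 32.9, 32.8 and 42.6 CPM in uninduced and 9.37, 8.702 and 10.7 CPM in stimulated clone 1. In clone 2 the libraries held 25.7, 27.5 and 27.01 CPM and then 8.07, 6.47 and 7.16 CPM. Every stimulated library lay far below every uninduced library. The log2 fold change was -2.28 ± 0.11 (SE), edgeR adjusted p = 7.51e-17 in WT, -1.91 ± 0.11 in clone 1 and -1.88 ± 0.12 in clone 2.

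*Irf7*, which drives interferon production, was at 2.04, 2.57 and 2.401 CPM in uninduced and 0.244, 0.216 and 0.586 CPM in stimulated WT libraries. In the clones *Irf7* went from 3.94, 3.65 and 5.85 to 0.905, 0.848 and 0.911 CPM (clone 1) and from 1.45, 2.21 and 1.51 to 0.448, 0.458 and 0.962 CPM (clone 2). The fall of *Irf7* was called in each genotype, at -2.72 ± 0.41, -2.33 ± 0.35 and -1.45 ± 0.39 on the log2 scale (edgeR adjusted p = 1.13e-06, 1.59e-06 and 0.00245).

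*Stat2* and *Irf1* were called lower in both clones and not in WT, and the difference in response from WT was called for *Irf1* alone. *Stat2* held 23.7, 23.3 and 22.1 CPM in uninduced and 11.4, 11.7 and 13.3 CPM in stimulated WT libraries, a log2 fold change of -0.92 ± 0.11 (SE), edgeR adjusted p = 1.46e-08, which is under the fold threshold. Clone 1 began at 11.4, 10.7 and 12.6 CPM, close to the level of stimulated WT cells, and ended at 4.53, 4.87 and 5.69 CPM. Clone 2 went from 25.3, 25.1 and 26.7 to 12.1, 9.68 and 9.98 CPM (-1.27 ± 0.11 (SE), edgeR adjusted p = 3.84e-11), and its uninduced libraries all lay above those of clone 1. *Irf1*, an early transcription factor of the interferon gamma response whose promoter holds the GAS match shown above, was not called in WT, where it went from 21.2, 27.8 and 27.5 to 17.2, 19.4 and 19.5 CPM (-0.45 ± 0.11 (SE), edgeR adjusted p = 6.85e-04). It fell further in clone 1, from 25.8, 30.4 and 28.4 to 9.48, 9.73 and 9.06 CPM, and in clone 2, from 23.3, 18.5 and 21.6 to 8.18, 7.71 and 7.28 CPM. Stimulated libraries of the clones all lay below stimulated WT libraries in *Irf1*, while the uninduced libraries overlapped.

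*Isg15*, a ubiquitin-like protein attached to other proteins after interferon, and 4 genes of the same group were tested, and *Usp18*, *Parp9*, *Parp14* and *Dtx3l* fell in all 3 genotypes. *Usp18* removes ISG15 from proteins, and *Parp9*, *Parp14* and *Dtx3l* belong to the ADP-ribosylation machinery of the interferon response. *Isg15* was at 1.34, 1.73 and 2.13 CPM in uninduced and 0.489, 0.259 and 0.361 CPM in stimulated WT libraries (-2.24 ± 0.41 (SE), edgeR adjusted p = 2.46e-05). Clone 1 went from 8.45, 5.36 and 9.58 to 0.692, 0.479 and 0.774 CPM (-3.59 ± 0.36 (SE), edgeR adjusted p = 9.46e-10). Clone 2 was already low, at 0.245, 0.3100 and 0.174 CPM, and had 0.112, 0.327 and 0.0601 CPM after stimulation (-0.60 ± 0.63 (SE), edgeR adjusted p = 0.448). *Isg15* libraries of clone 2 overlapped between treatments, and this gene alone of the group was not called there, while the difference from the WT response was not called either (1.64 ± 0.81 (SE), edgeR adjusted p = 0.132). *Parp9* and *Dtx3l* lie head to head, and 9.40% of the exonic bases of *Parp9* lie under *Dtx3l*, so without a known strand setting their reads cannot be fully separated.

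Of 9 tested antiviral effectors, *Ifit1*, *Ifit3*, *Oasl2*, *Bst2* and *Samd9l* fell in all 3 genotypes. The IFIT proteins bind viral RNA. *Ifit3* had the largest called fall in WT and clone 1 among those averaging 1 CPM or more. It went from 12.00, 10.4 and 13.6 to 0.0978, 0.389 and 0.271 CPM in WT, a fall of 45.7-fold (log2 fold change -5.51 ± 0.27 (SE), edgeR adjusted p = 7.18e-17). In clone 1 it went from 34.2, 32.02 and 41.1 to 0.532, 0.664 and 0.137 CPM, a fall of 77.6-fold (log2 fold change -6.28 ± 0.23). In clone 2 it went from 18.8, 21.6 and 21.8 to 0.5603, 0.523 and 0.722 CPM, a fall of 33.96-fold (log2 fold change -5.09 ± 0.24). The lowest uninduced library stood above 10 CPM and the highest stimulated library below 1 CPM. *Ifit3* shares 31.7% of its 100-base stretches with *Ifit3b*, which went from 9.07 to 0.0288 CPM in WT, so the split of reads between both genes is uncertain.

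*Ifit1* also fell in all 3 genotypes. It was at 8.68, 5.19 and 7.09 CPM in uninduced WT, 19.2, 17.2 and 29.7 CPM in uninduced clone 1 and 5.58, 6.16 and 6.203 CPM in uninduced clone 2. After stimulation it was at 0.538, 0.691 and 0.676 CPM in WT, 1.17, 0.774 and 1.64 CPM in clone 1 and 1.06, 1.18 and 0.962 CPM in clone 2. The log2 fold change was -3.44 in WT, -4.22 in clone 1 and -2.47 in clone 2 (edgeR adjusted p = 7.93e-12, 3.02e-15 and 4.89e-09). *Bst2*, which tethers budding virus to the cell, fell from 21.5, 18.7 and 17.9 to 4.401, 3.63 and 4.24 CPM in WT. Its libraries held 20.03, 15.5 and 21.8 and then 3.62, 2.69 and 2.78 CPM in clone 1, and 9.95, 11.03 and 9.102 and then 1.18, 3.86 and 2.105 CPM in clone 2. The falls of *Bst2* were -2.24 ± 0.20, -2.67 ± 0.21 and -2.10 ± 0.23 on the log2 scale (edgeR adjusted p = 3.53e-10, 3.19e-11 and 1.81e-08). *Ifit2*, another IFIT protein, held 12.6, 13.6 and 14.8 and then 9.34, 11.01 and 8.97 CPM in WT. It held 18.3, 14.8 and 18.02 and then 5.96, 3.61 and 5.01 CPM in clone 1, and 20.5, 20.99 and 22.1 and then 10.03, 9.87 and 10.8 CPM in clone 2. *Ifit2* fell in both clones, with a log2 fold change of -0.48 in WT, and the difference from WT was called in clone 1. *Rtp4* fell in WT and clone 1, with a log2 fold change of -0.18 in clone 2, and there the difference from WT was called.

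The guanylate-binding proteins and immunity-related GTPases, which attack membranes around intracellular pathogens, were tested in 6 members. *Gbp2*, *Gbp3*, *Gbp7*, *Igtp* and *Irgm1* fell in all 3 genotypes and *Iigp1* in WT and clone 1. *Gbp2* went from 12.6, 16.04 and 15.8 to 0.391, 0.864 and 0.766 CPM in WT (-4.43 ± 0.27 (SE), edgeR adjusted p = 1.15e-14). It went from 11.99, 10.4 and 10.9 to 0.1597, 0.147 and 0.547 CPM in clone 1 (-5.28 ± 0.32 (SE), edgeR adjusted p = 8.26e-15) and from 5.22, 7.04 and 5.28 to 0.168, 0.588 and 0.1804 CPM in clone 2 (-4.24 ± 0.35 (SE), edgeR adjusted p = 1.12e-11). All stimulated *Gbp2* libraries lay under 1 CPM and all uninduced ones above 5 CPM. *Irgm1*, which guards host membranes, fell from 66.7 ± 3.67 to 19.03 ± 0.745 CPM in WT, from 64.5 ± 5.61 to 10.1 ± 0.413 CPM in clone 1 and from 51.4 ± 0.952 to 8.85 ± 0.517 CPM in clone 2. *Iigp1* was not called in clone 2, with 1.09, 1.33 and 0.5797 CPM in uninduced and 2.35, 1.24 and 1.56 CPM in stimulated libraries, which overlap (0.75 ± 0.42 (SE), edgeR adjusted p = 0.139).

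In the antigen presentation group, 5 of 10 genes fell in all 3 genotypes. *Psmb9*, *Psmb10*, *Tap1*, *Tap2* and *Tapbp* were these 5, *Psmb8* and *Nlrc5* fell in 2 genotypes, *H2-K1* in clone 1 and *H2-D1* in clone 2, and *B2m* was called in none. *Tap1*, one chain of the peptide transporter, went from 28.4, 30.5 and 28.2 to 5.97, 7.77 and 4.91 CPM in WT. It went from 40.8, 39.3 and 37.5 to 3.301, 3.87 and 2.64 CPM in clone 1 and from 14.4, 15.6 and 14.6 to 1.68, 1.63 and 1.38 CPM in clone 2. The log2 fold change was -2.22 in WT and -3.57 and -3.24 in the clones (edgeR adjusted p = 2.58e-15, 1.80e-19 and 2.63e-16). *Tap2*, its partner, went from 58.2 ± 0.891 to 4.62 ± 0.792 CPM in WT (-3.65 ± 0.12 (SE), edgeR adjusted p = 6.56e-21), and *Tapbp*, which links the transporter to MHC class I, from 239 ± 6.37 to 80.2 ± 1.48 CPM (-1.58 ± 0.05 (SE), edgeR adjusted p = 1.08e-22). Gene models overlap 29.0% of the exonic bases of *Tapbp* and 18.5% of those of *Tap2*.

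The light chain shared by all MHC class I molecules, *B2m*, was the most abundant gene of the programme per length, at 401 CPM per kb of gene in uninduced WT cells against 5.31 for *Tap1* and 1.703 for *H2-D1*. Its libraries held 342, 343 and 351 CPM in uninduced and 245, 237 and 240.5 CPM in stimulated WT cells. In clone 1 they held 634, 621 and 679 and then 431, 431 and 433 CPM, and in clone 2 654, 643 and 646 and then 385, 411 and 399.6 CPM. The groups did not overlap, yet the falls stayed under the fold threshold, at -0.52 ± 0.04, -0.58 ± 0.04 and -0.70 ± 0.04 on the log2 scale (edgeR adjusted p = 4.36e-12, 3.78e-13 and 3.94e-15). *H2-K1*, a classical class I heavy chain, was at 3.203, 2.097 and 3.16 CPM in uninduced and 1.96, 2.42 and 2.43 CPM in stimulated WT cells. It went from 4.61, 3.38 and 7.87 to 1.704, 1.55 and 1.503 CPM in clone 1 (-1.74 ± 0.28 (SE), edgeR adjusted p = 5.40e-06) and from 3.61, 3.19 and 3.88 to 1.905, 2.35 and 1.32 CPM in clone 2 (-0.94 ± 0.29 (SE), edgeR adjusted p = 0.00701). The reads were mapped to the C57BL/6J genome while 10T1/2 cells come from C3H mice, and the part of such allele differences in the low counts of *H2-K1* and *H2-D1* was not tested.

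Of the 3 immunoproteasome subunits, *Psmb9* and *Psmb10* fell in all 3 genotypes and *Psmb8* in WT and clone 2, while in clone 1 *Psmb8* had 2 counts before stimulation and none after. *Psmb9* went from 11.6, 10.7 and 7.89 to 0.293, 0.0432 and 0.496 CPM in WT (-5.16 ± 0.41 (SE), edgeR adjusted p = 2.51e-11). In clone 1 it went from 6.35, 6.06 and 5.18 to 0.266, 0 and 0.273 CPM (-5.11 ± 0.45 (SE), edgeR adjusted p = 3.15e-10). Clone 2 had 4.48, 4.295 and 3.77 CPM uninduced and no count in 3 stimulated libraries, so its fall was at least 71.1-fold against a floor of 3 counts over the group. *Psmb10*, another subunit, went from 21.2 ± 4.83 to 8.41 ± 0.505 CPM in WT. *Psmb5*, *Psmb6* and *Psmb7*, which take the same places in the constitutive proteasome, were called in no response. In WT, *Psmb5* was at 67.04 ± 7.14 and 88.9 ± 2.98 CPM, *Psmb6* at 106 ± 6.52 and 129 ± 7.52 CPM, and *Psmb7* at 74.7 ± 2.48 and 87.6 ± 2.63 CPM before and after stimulation. Per length in uninduced WT cells, *Psmb5* had 74.6 CPM per kb against 1.81 for *Psmb8*. *Psmb9* and *Tap1* start close together on opposite strands of chromosome 17, and 5.79% of the exonic bases of *Psmb9* lie under *Tap1*.

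**Figure D3:**
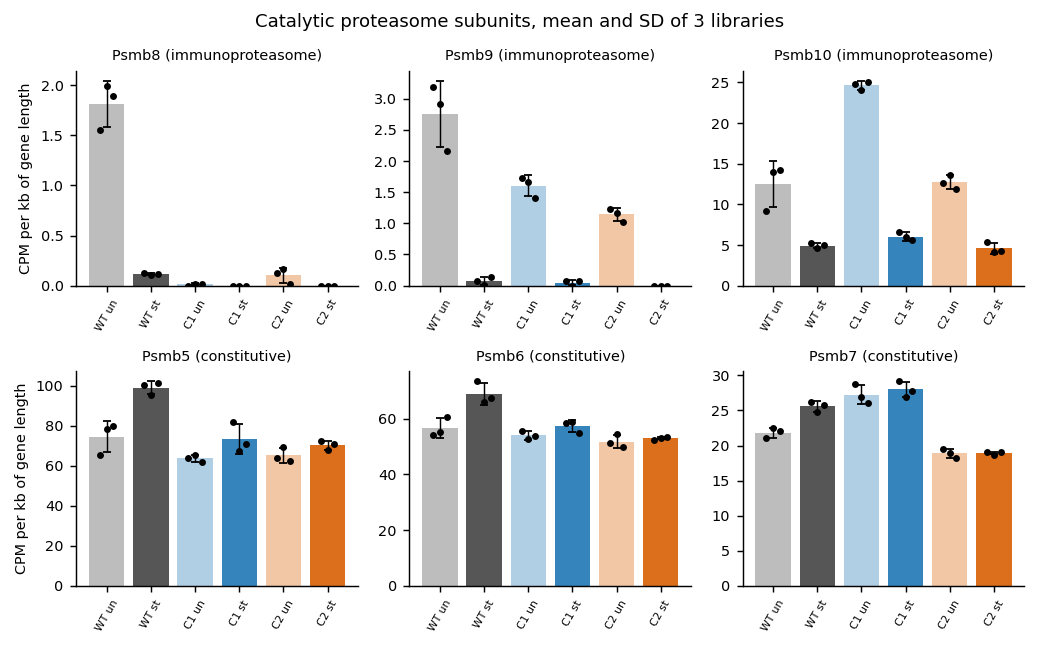
Level per length (CPM per kb of gene) of the 3 immunoproteasome subunits (top) and the 3 constitutive subunits (bottom), as mean and SD of 3 libraries with each library as a point, for uninduced (un, pale) and stimulated (st, dark) WT, clone 1 (C1) and clone 2 (C2). The immunoproteasome bars drop after stimulation in WT and those of *Psmb8* are near 0 in both clones, while the constitutive subunits were called in no response.

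Of 6 RNA sensors and effectors, *Ddx58* and *Dhx58* fell in all 3 genotypes and *Ifih1* in WT and clone 1. *Ddx58*, which encodes the RNA sensor RIG-I, went from 71.03 ± 3.46 to 33.6 ± 2.701 CPM in WT (-1.08 ± 0.08 (SE), edgeR adjusted p = 1.79e-12), with log2 fold changes of -1.26 and -1.12 in the clones. *Eif2ak2*, the RNA-activated kinase PKR, and *Adar*, an RNA-editing enzyme, were not called in any response, with log2 fold changes between -0.61 and -0.04. Only *Zbp1* (WT and clone 2) and *Slfn2* (both clones) of the 43 genes rose in any response, and no gene rose in all 3, where 2.21% of all genes tested did. *Zbp1*, a sensor of left-handed nucleic acid, had 1 count in uninduced WT cells and 61 after stimulation, a ratio of 57.9 (exact 95% interval 10.02 to 2326), and libraries of 0.538, 0.777 and 1.44 CPM. *Slfn2* had no count in any of 6 WT libraries and reached 2.66, 2.62 and 2.004 CPM in stimulated clone 1 and 1.46, 2.09 and 2.71 CPM in stimulated clone 2. In uninduced cells *Slfn2* had 0.102, 0 and 0.311 CPM in clone 1 and 0, 0.266 and 0 CPM in clone 2. *Slfn2* passed the filter on low counts through the stimulated clones only, so its called rises rest on the libraries in which it was high.

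The other 102 genes of the pathway, listed by role, were read beside the 48. Of 80 tested, 38 fell and none rose in WT, 36 fell and 1 rose in clone 1, and 30 fell and 2 rose in clone 2. The median log2 fold change was -0.81 in WT, -0.92 in clone 1 and -0.71 in clone 2. Among 33 further interferon-stimulated genes 18 fell in all 3 genotypes, and among 17 further antigen presentation genes 6 did. Among 11 sensors, adaptors and ligands 1 did, among 3 class II genes *Cd74* and *H2-DMb1* did, and none of the 3 constitutive proteasome subunits did, beside 5.70% of all genes tested. The 14 tested genes of the 48 with an ISRE match fell in all 3 genotypes in 9 cases, the 19 with a window and no match in 10 cases and the 10 with no window in 5 cases, and this split was not tested.

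The second comparison set each clone against WT in uninduced cells. In clone 1, 9 of 43 genes were higher and 1 lower, where 15.1% of all genes were called, 6.32% higher and 8.73% lower. In clone 2, 2 were higher and 11 lower, where 15.1% of all genes were called, 5.54% higher and 9.56% lower. Both clones are compared with the same WT libraries. Their log2 fold changes had a median of 0.36 for clone 1 and -0.37 for clone 2, beside -0.01 and -0.02 over all genes.

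**Figure D4:**
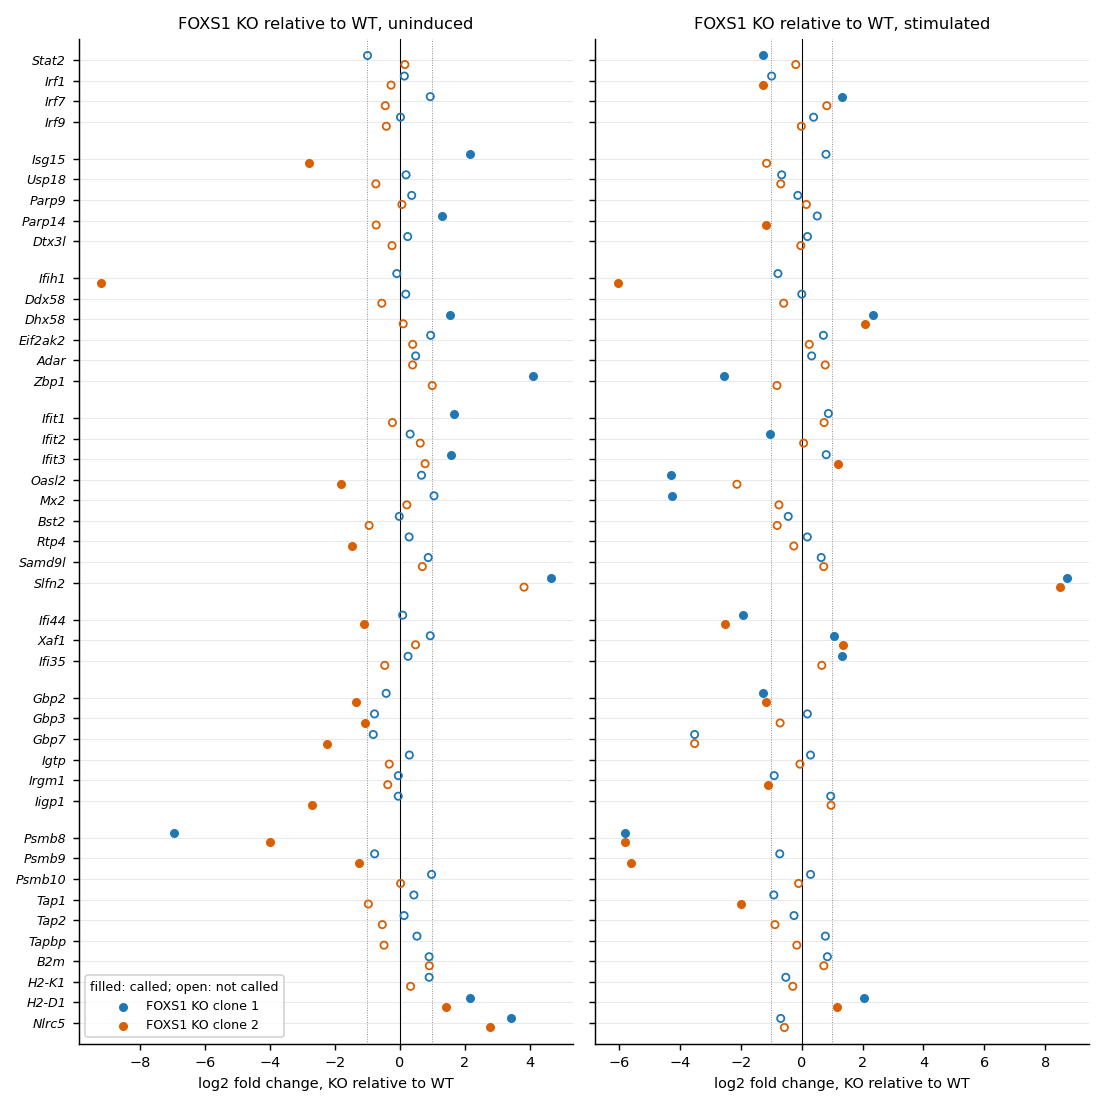
Log2 fold change of clone 1 (blue) and clone 2 (orange) against WT for the 43 tested genes in uninduced (left) and stimulated (right) cells, with filled points for called DEGs and dotted lines at an absolute log2 fold change of 1. On the left *Isg15* is right of 0 in clone 1 and left of 0 in clone 2, *H2-D1* is right of 1 in both, and *Psmb8* is far left in both, with sizes that depend on the prior count for genes with no count in a group.

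In clone 1 the genes called higher were *Isg15*, *Ifit1*, *Ifit3*, *Parp14*, *Dhx58*, *Zbp1*, *Slfn2*, *H2-D1* and *Nlrc5*. *Slfn2* passed the filter on low counts through the stimulated clones, had 8 counts in uninduced clone 1 against none in WT, and overlapped WT (edgeR adjusted p = 0.0428). The lowest *Isg15* library of clone 1 given above lay above the highest of WT, with a log2 fold change of 2.15 ± 0.33 (SE), edgeR adjusted p = 2.04e-06. The log2 fold change of *Ifit1* was 1.66 ± 0.20 (SE), edgeR adjusted p = 3.12e-08, and that of *Ifit3* was 1.57 ± 0.15 (SE), edgeR adjusted p = 3.56e-10. Replicate 3 of clone 1 was the highest of its group in *Isg15*, *Ifit1*, *Ifit3*, *Irf7* and *Irf9*, and leaving it out kept the calls of *Isg15* and *Ifit1*. *Dhx58*, a regulator of RIG-I signalling, was at 7.804 ± 0.694 CPM against 2.65 ± 0.484 CPM in WT (1.55 ± 0.29 (SE), edgeR adjusted p = 3.84e-05). *Nlrc5*, which activates MHC class I genes, was at 0, 0 and 0.191 CPM in WT, 0.512, 0.751 and 1.35 CPM in clone 1 and 0.625, 0.443 and 0.5797 CPM in clone 2. No library of either clone overlapped WT in *Nlrc5*, and the log2 fold changes were 3.41 ± 0.82 (SE), edgeR adjusted p = 8.09e-04 in clone 1 and 2.76 ± 0.83 (SE), edgeR adjusted p = 0.00609 in clone 2. *Nlrc5* had 5 counts over uninduced WT and 50 and 48 over uninduced clones 1 and 2. It passed the filter on low counts through the uninduced clones only. These calls, and its called falls with stimulation in both clones, thus rest on the libraries in which it was high.

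In clone 2 the lower genes were *Isg15*, *Oasl2*, *Rtp4*, *Ifi44*, *Ifih1*, *Gbp2*, *Gbp3*, *Gbp7*, *Iigp1*, *Psmb8* and *Psmb9*. *Isg15* was lower in every library of clone 2 than in any WT library (-2.80 ± 0.42 (SE), edgeR adjusted p = 1.83e-06). *Gbp2* stood at 5.85 ± 1.04 CPM against 14.8 ± 1.94 CPM in WT (-1.35 ± 0.21 (SE), edgeR adjusted p = 2.15e-06). A total of 4 of the 6 GTPase genes were lower in clone 2 and none was called in clone 1, where 9.56% and 8.73% of all genes were called lower. *Gbp3* was lower in clone 1 under the fold threshold (-0.78 ± 0.24 (SE), edgeR adjusted p = 0.00625). Directly compared in uninduced cells, clone 1 was higher than clone 2 in 13 of 43 genes and lower in 2, where 8.67% of all genes were called, 4.89% higher and 3.78% lower. *Isg15* differed most among genes with counts in both clones, by 4.95 ± 0.41 (SE), edgeR adjusted p = 2.71e-11 on the log2 scale, and *Stat2* was lower in clone 1 (-1.15 ± 0.11 (SE), edgeR adjusted p = 5.60e-10).

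*Ifih1*, which encodes the RNA sensor MDA5, had no count in clone 2. Its libraries held 3.79, 2.67 and 3.66 CPM in uninduced WT and 3.43, 2.68 and 3.37 CPM in uninduced clone 1, and no count in any of 6 clone 2 libraries. Against a floor of 3 counts it was at least 95.8-fold lower in uninduced clone 2 than in WT. The neighbours of *Ifih1* on chromosome 2 were looked up after this value was seen. *Fap*, a membrane protease, was at 0.737 CPM in uninduced WT, 0.0695 in clone 1 and 0 in clone 2, and *Gca*, a calcium-binding protein, at 1.26, 0.0358 and 0.0268 CPM. Both neighbours were thus near 0 in both clones, and *Ifih1* (chr2:62595798-62646255, GRCm38) in clone 2 only.

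*Psmb8*, the immunoproteasome subunit between *Tap1* and *Tap2* on chromosome 17, was nearly missing from clone 1. It was at 4.25, 5.45 and 5.18 CPM in uninduced WT and 0, 0.0536 and 0.0518 CPM in uninduced clone 1, where only 2 counts were seen against 313 in WT, a ratio of 144 (exact 95% interval 39.5 to 1194). Clone 2 held 0.357, 0.443 and 0.05800 CPM (-4.00 ± 0.49 (SE), edgeR adjusted p = 1.61e-07). Stimulated WT libraries had 0.342, 0.302 and 0.316 CPM and no stimulated library of either clone had a count. *Psmb8* passed the filter on low counts through uninduced WT only. Its calls lower in both uninduced clones, and its called fall in WT, thus rest on the libraries in which it was high. The genes on either side were measured too. *Tap1* was at 39.2 ± 1.67 CPM and *Tap2* at 63.7 ± 0.882 CPM in uninduced clone 1 against 29.1 ± 1.26 and 58.2 ± 0.891 CPM in WT, and *Psmb10* was at 42.02 ± 0.945 CPM against 21.2 ± 4.83 CPM. Of 3 class II genes further along this region, looked up after these values were seen, *H2-DMb1* was called lower in both uninduced clones and *H2-DMa* in neither. *H2-DMb1* was at 6.69 CPM in uninduced WT and 2.12 and 1.96 CPM in the clones, *H2-DMb2* at 4.93, 1.24 and 1.65 CPM, and *H2-DMa* at 19.3, 24.6 and 27.1 CPM in the same order.

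*H2-D1*, a classical class I heavy chain, was called higher in both clones and both treatments. It held 3.09, 2.62 and 7.47 CPM in uninduced WT, 16.3, 22.3 and 22.7 CPM in uninduced clone 1 and 10.9, 14.4 and 11.1 CPM in uninduced clone 2. After stimulation the libraries were at 2.49, 2.29 and 3.11 CPM in WT, 13.2, 8.67 and 10.7 CPM in clone 1 and 5.32, 5.95 and 6.37 CPM in clone 2. Neither clone overlapped WT in either treatment. The log2 fold change against WT was 2.16 ± 0.28 (SE), edgeR adjusted p = 3.92e-06 in uninduced clone 1 and 1.41 ± 0.28 (SE), edgeR adjusted p = 4.04e-04 in uninduced clone 2. *B2m*, under the fold threshold, had log2 fold changes of 0.90 ± 0.04 and 0.91 ± 0.04 in uninduced clones (edgeR adjusted p = 1.85e-17 and 1.34e-17). *Cd74*, the chaperone of MHC class II and a gene of antigen-presenting cells, stood at 4.85 CPM in uninduced WT and at 53.3 and 63.05 CPM in the clones, and its part in these differences was not tested.

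In stimulated cells 6 of 43 genes were higher and 8 lower in clone 1 than in WT (19.0% of all genes called, 9.42% higher and 9.60% lower), and 5 were higher and 9 lower in clone 2 (16.9% called, 7.95% higher and 8.94% lower). The balance in clone 1 turned to 13 higher and 11 lower without the fold threshold, and its 8 lower genes were 5 without WT stimulated replicate 2 or clone 1 stimulated replicate 1. Among these 8, *Oasl2* and *Mx2* each had 7 counts over WT and none over clone 1, with overlapping libraries. *Psmb8*, also among them, had 21 counts over WT and none over clone 1. Median log2 values were 0.18 for clone 1 and -0.26 for clone 2, or -0.20 with genes of no count set to their bound. *Slfn2* was at least 53.3-fold higher in clone 1 and at least 45.4-fold higher in clone 2 than in WT, which had none. Both calls rest on the stimulated clone libraries through which it passed the filter on low counts. *Slfn2* belongs to the schlafen family. *Dhx58* was at 0, 0.173 and 0.271 CPM in WT, 0.692, 0.516 and 1.18 CPM in clone 1 and 0.728, 0.458 and 0.782 CPM in clone 2. It was called higher in both (2.34 ± 0.52 (SE), edgeR adjusted p = 2.72e-04 in clone 1 and 2.08 ± 0.55 (SE), edgeR adjusted p = 0.00194 in clone 2). *Xaf1*, which promotes cell death, was at 0.831, 0.345 and 0.361 CPM in WT, 0.852, 1.33 and 0.957 CPM in clone 1 and 1.23, 1.700 and 0.962 CPM in clone 2 (1.35 ± 0.37 (SE), edgeR adjusted p = 0.00262).

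On the lower side, *Ifi44*, an interferon-induced protein, was at 3.23, 2.89 and 3.697 CPM in stimulated WT and 0.799, 0.922 and 0.8199 CPM in clone 1 (-1.94 ± 0.33 (SE), edgeR adjusted p = 7.45e-06). Clone 2 had 0.504, 0.719 and 0.481 CPM (-2.52 ± 0.36 (SE), edgeR adjusted p = 6.45e-07). All clone libraries lay below all WT libraries. *Gbp2* was called lower in both clones, at -1.26 and -1.16 on the log2 scale (edgeR adjusted p = 0.0181 and 0.0432), calls that 4 of the single-library removals ended in each clone. *Tap1* was lower in clone 2 (-1.99 ± 0.19 (SE), edgeR adjusted p = 1.74e-10), and *Stat2* in clone 1 (-1.27 ± 0.12 (SE), edgeR adjusted p = 2.72e-10). Clone 1 against clone 2 in stimulated cells had 5 genes higher and 2 lower, where 9.98% of all genes were called, 5.50% higher and 4.48% lower. *Ifih1* was at 0.342, 0.518 and 0.271 CPM in stimulated WT and 0.0532, 0.258 and 0.319 CPM in stimulated clone 1.

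The third comparison tested whether the response itself differed between each clone and WT. In clone 1 the response was called more negative for 9 of 43 genes and more positive for 1, where 8.81% of all genes were called, 3.46% lower and 5.34% higher. In clone 2 it was more negative for 3 and more positive for 4, where 7.85% of all genes were called, 2.96% lower and 4.89% higher. The 3 of clone 2 became 0 without clone 2 stimulated replicate 3, 1 without WT stimulated replicate 3, and 5 by the DESeq2 Wald test. The 1 of clone 1, *Ifi35*, was lost without WT uninduced replicate 1, WT stimulated replicate 1 or clone 1 uninduced replicate 2. Both comparisons use the same WT libraries. *Tap1* fell further than in WT by -1.35 ± 0.19 in clone 1 and -1.02 ± 0.23 in clone 2 (edgeR adjusted p = 1.29e-06 and 6.70e-04), and *Irf1* by -1.13 ± 0.16 and -1.01 ± 0.16 (edgeR adjusted p = 1.16e-06 and 1.25e-05). *Ifi44* was not called in WT, where its log2 fold change was 0.07, and its response differed by -2.02 ± 0.44 (SE), edgeR adjusted p = 5.27e-04 in clone 1 and -1.43 ± 0.48 (SE), edgeR adjusted p = 0.0223 in clone 2. *H2-K1* had a more negative response in clone 1 (-1.42 ± 0.40 (SE), edgeR adjusted p = 0.00642), as had *Nlrc5* (-4.10 ± 1.35 (SE), edgeR adjusted p = 0.0196). For *Nlrc5*, which passed the filter on low counts through the uninduced clones only, this call rests on the libraries in which it was high. The same holds for *Mx2*, also among the 9 of clone 1, which passed it through uninduced clone 1. Leaving out 1 library ended the calls of *Nlrc5* and *Ifi35* in clone 1 and of *Irf1*, *Tap1*, *Ifi44* and *Dhx58* in clone 2.

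The difference had the opposite sign for *Ifi35*, an interferon-induced leucine zipper protein. It was at 26.3, 24.01 and 21.04 CPM in uninduced and 11.2, 14.2 and 12.6 CPM in stimulated WT libraries. Clone 1 libraries held 28.99, 25.1 and 30.6 and then 33.2, 30.9 and 31.6 CPM, and clone 2 libraries 17.8, 16.6 and 16.99 and then 20.1, 20.2 and 19.8 CPM. All stimulated WT libraries lay below all uninduced ones and no response was called, while the difference from WT was 1.08 ± 0.14 (SE), edgeR adjusted p = 3.32e-07 in clone 1 and 1.12 ± 0.14 (SE), edgeR adjusted p = 2.74e-07 in clone 2. *Ifi35* shares 16.8% of its exonic bases with a gene model on the opposite strand. In clone 2 the responses of *Dhx58*, *Rtp4* and *Iigp1* were also more positive, *Iigp1* most (3.67 ± 0.58 (SE), edgeR adjusted p = 1.79e-05), where uninduced clone 2 held 1.000 ± 0.383 CPM against 6.72 ± 1.61 CPM in WT.

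**Figure D5:**
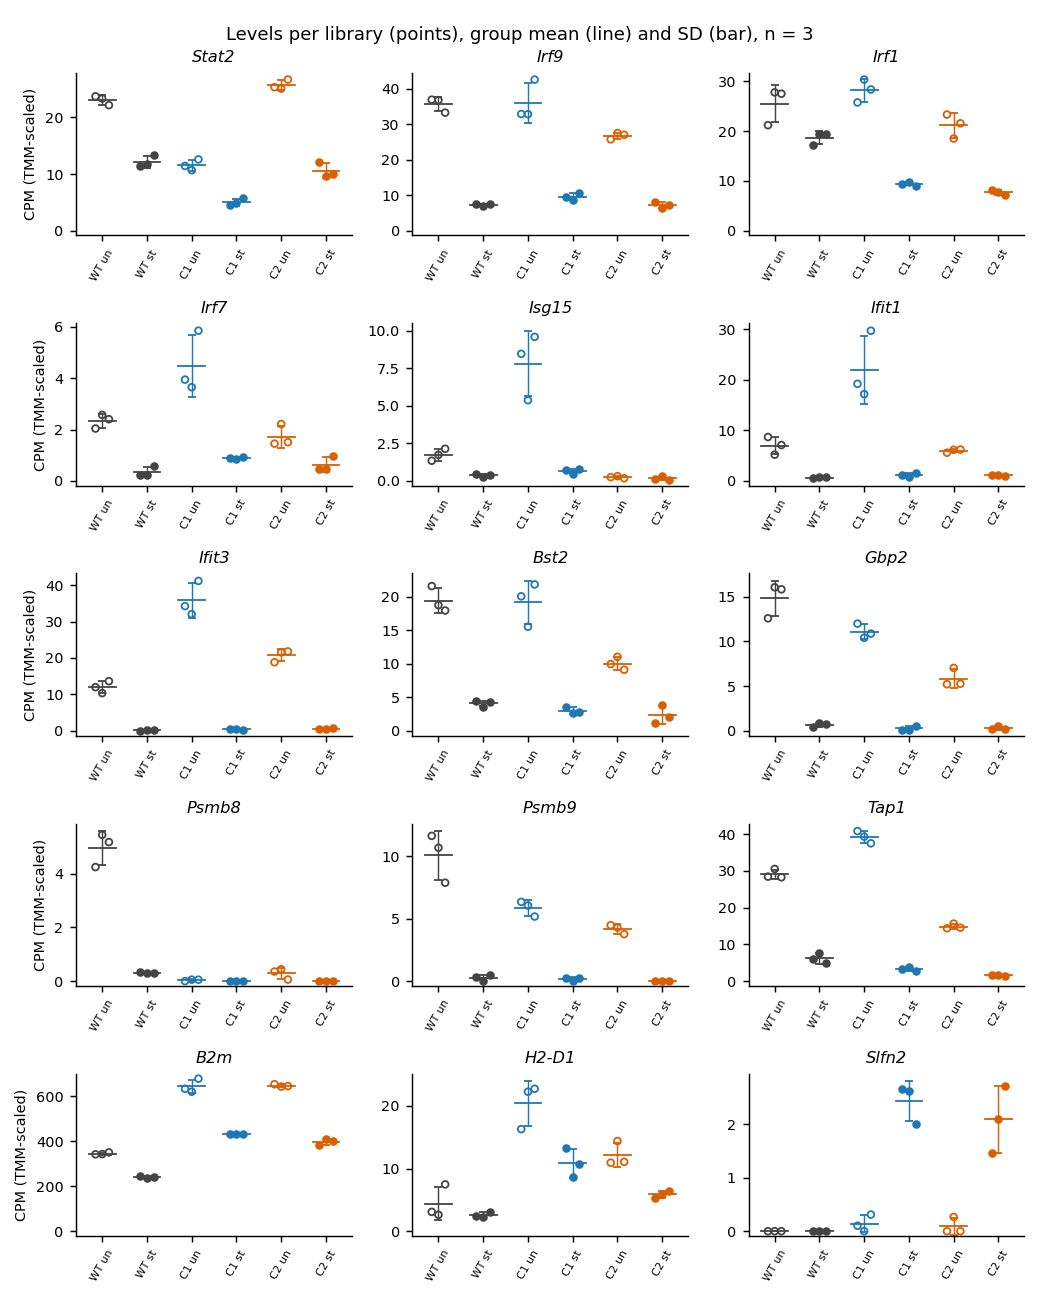
Levels in CPM of 15 genes in each of 18 libraries (points), with group mean (line) and SD (bar, n = 3), for WT, clone 1 (C1) and clone 2 (C2), uninduced (un, open points) and stimulated (st, filled points), on a linear axis per gene. Most genes are low after stimulation in every genotype, *Isg15* and *Ifit3* are highest in uninduced clone 1, *B2m* and *H2-D1* are above WT in both clones, and *Slfn2* is seen in stimulated clones only, apart from traces.

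Among genes of the wider pathway, those called higher in both clones when uninduced were *Ifi27l2a*, *Trim30a*, *Rnf213*, *Gbp9*, *Slfn9* and *Cd74*, and *H2-DMb1* was lower in both. In stimulated cells *Tlr4*, *Ifi27l2a*, *Ifi203*, *Ifi204*, *Ifitm2*, *Ifitm3*, *Trim30a*, *Parp10*, *Rnf213* and *Cd74* were higher in both clones, and *Ifi47* and *H2-DMb1* lower in both. Both clones are compared with the same WT libraries. Of all genes, 6.32% and 5.54% were called higher in uninduced clones 1 and 2, and 9.42% and 7.95% in stimulated ones. The share called alike in both clones is not given here, so these names are a list and not a result about the pathway. *Cd74* had a log2 fold change of 4.20 ± 0.18 in stimulated clone 1 and 3.68 ± 0.18 in stimulated clone 2. *Trim30a*, a regulator of inflammasome and NF-κB signalling, had 4.16 ± 0.56 and 5.24 ± 0.52.

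The 5 genes that did not pass the filter on low counts were *Oas1a*, *Mx1*, *Rsad2*, *Trim25* and *Sp100*. *Mx1* and *Rsad2*, canonical antiviral genes, had counts in uninduced clone 1 only, 11 and 8 over the group, and none in any other group. Those of *Mx1* stand for at least 3.98-fold and those of *Rsad2* for at least 2.89-fold the WT floor. *Oas1a*, an RNA-activated synthetase, had 25 counts in uninduced clone 1 and 2 in uninduced WT, a ratio of 13.6 (exact 95% interval 3.39 to 118). *Sp100*, a nuclear body protein, had 62 counts in uninduced clone 1, 1 in uninduced WT and none in clone 2, a ratio of 67.4 (exact 95% interval 11.7 to 2704) against WT. Its clone 1 libraries held 0.307, 1.18 and 1.76 CPM. *Trim25*, an E3 ligase of RIG-I signalling, had 1 count over all 18 libraries. These intervals and floors cover counting error only.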

How the data were processed

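Counts per gene were those the authors deposited, with no normalization. Per the labels and the paper, poly(A) RNA was sequenced as paired reads, mapped to GRCm38 (mm10) with HISAT2 and counted per gene. The counting step had a program, annotation and strand setting not given in the sources used here. Every count column was mapped to 1 of 18 libraries. The tests used edgeR 4.0.16 under R 4.3.3 (filterByExpr by group with minimum count 10, TMM, a mean for each of 6 groups, glmQLFit robust, glmQLFTest, Benjamini-Hochberg adjustment over 14317 genes). DEGs needed a change of more than 1 in log2 units, up or down, and an adjusted p below 0.05. Genes outside the filter are given by their counts. The procedure was tested on simulated data. A floor of 3 counts over a group was between 0.0354 and 0.0603 CPM. Library totals had a median of 20178953.5 counts and set the precision of low genes. The 18 pairs of replicate libraries were 3.13 to 14.6 in chi-square per degree of freedom, beyond counting error.

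The 48 genes and the other lists were chosen with earlier results of these data known. Values in every library were given for *Stat2*, *Irf1*, *Irf7*, *Irf9*, *Isg15*, *Ifit1*, *Bst2*, *Gbp2*, *Psmb8*, *Tap1*, *B2m*, *H2-K1* and *Nlrc5*, and for the called genes with the 2 largest rises and 2 largest falls of each comparison, at a mean of at least 1 CPM over all libraries. Genes of the wider list were named where called in the same direction in both clones of a treatment. Further genes were named after their values were seen, and some results are not reported here. The alternatives were the DESeq2 1.42.0 Wald test, DESeq2 size factors, no filter, a replicate block, no fold threshold and each library left out. Gene models and shared 100-base stretches came from GENCODE M21, whose coordinates equalled the deposited ones for 53548 of 54495 shared genes, and promoters from RefSeq (GRCm38.p6). Python 3.11.15 and matplotlib 3.10.9 drew the figures.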

Additional observations from a re-analysis of the deposited data

Results flagged for a closer look

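A difference in response between a clone and WT, tested as an interaction in edgeR at the same thresholds, singled out 17 results. In clone 1 the log2 difference was -1.13 for *Irf1*, -1.35 for *Ifit2*, -2.02 for *Ifi44*, -1.35 for *Tap1* and -1.42 for *H2-K1*. It was -4.95 for *Oasl2*, -5.32 for *Mx2*, -4.10 for *Nlrc5* and -6.67 for *Zbp1*, genes with no or few counts in a group, whose size depends on the prior count. *Mx2* passed the filter on low counts through uninduced clone 1. Its called fall in clone 1 and this difference thus rest on the libraries in which it was high. *Ifi35* differed by 1.08.

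In clone 2 the difference was -1.01 for *Irf1*, -1.43 for *Ifi44* and -1.02 for *Tap1*. It was 1.98 for *Dhx58*, 1.21 for *Rtp4*, 1.12 for *Ifi35* and 3.67 for *Iigp1*. Both sets of differences use the same WT libraries, and their causes were not tested.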

How the results depend on the processing

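Over 87 named values and 22 settings, 1878 of 1914 kept their call, 36 lost it and none changed sign. The totals of called genes under the DESeq2 Wald test, DESeq2 size factors and no filter stayed within 1.5 times the ones given, as did the counts in each direction, except for 5 in place of 3 more negative responses in clone 2 under the Wald test. Without the fold threshold, 26 genes (clone 1) and 29 (clone 2) differed from WT when uninduced, 24 (13 higher, 11 lower) and 22 (9 higher, 13 lower) when stimulated, 12 (6 more negative, 6 more positive) in the response of clone 2 against WT, and 30 and 17 between the clones in uninduced and stimulated cells, where all genes called rose too (7657 in place of 2155 and 7619 in place of 2162 for uninduced clones 1 and 2 against WT, 8436 for 2722 and 8011 for 2418 when stimulated, 8693 for 2849, 7803 for 2391 and 7982 for 2528 in the responses of WT, clone 1 and clone 2, 4526 for 1261 and 4463 for 1124 in their differences from WT, and 6039 for 1241 and 6500 for 1429 between the clones). Leaving out 1 library gave 10 to 14 and 11 to 15 genes against WT in uninduced clones 1 and 2, 10 to 16 and 11 to 17 in stimulated ones, 30 to 31, 36 to 38 and 32 to 34 in the responses of WT, clone 1 and clone 2, 7 to 11 in clone 1 and 4 to 8 in clone 2 for the differences in response (4 without clone 2 stimulated replicate 3, where none was more negative), and 13 to 18 and 5 to 8 between the clones. Genes lower in stimulated clone 1 than in WT ranged from 5 to 8, and genes higher in stimulated clone 1 than in clone 2 from 3 (without clone 2 stimulated replicate 3) to 6. Genes lower in stimulated clone 1 than in clone 2 were 1 in place of 2 without clone 1 stimulated replicate 2 or clone 2 stimulated replicate 1.

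Replicate numbers showed no sign of pairing in the counts, which does not settle how the libraries were made. Deviations of 45 same-numbered pairs correlated at -0.041 to 0.050, and 4 of 18 libraries correlated best with their own number. With the replicate number as a block, 9 genes were called in uninduced clone 1 in place of 10 and the other counts did not move: 13, 14 and 14 in the remaining comparisons with WT, 30, 36 and 33 in the responses, 10 and 7 in the differences and 15 and 7 between the clones.

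Calls lost without 1 library concerned, in stimulated cells against WT, *Gbp2* (-1.17 to -0.89, without WT stimulated replicate 2, WT stimulated replicate 3, clone 1 stimulated replicate 1, clone 1 stimulated replicate 2) and *Irf7* (1.07, without WT stimulated replicate 2) in clone 1 and *Gbp2* (-1.07 to -0.84, without WT stimulated replicate 2, WT stimulated replicate 3, clone 2 stimulated replicate 1, clone 2 stimulated replicate 3) in clone 2. In the difference in response they concerned *Ifi35* (0.998 to 0.999, without WT uninduced replicate 1, WT stimulated replicate 1, clone 1 uninduced replicate 2) and *Nlrc5* (-3.97 to -3.65, without WT stimulated replicate 1, clone 1 uninduced replicate 3) in clone 1. In clone 2 they concerned *Irf1* (-0.98 to -0.90, without WT uninduced replicate 1, WT stimulated replicate 2, WT stimulated replicate 3, clone 2 uninduced replicate 1, clone 2 stimulated replicate 3), *Tap1* (-0.99 to -0.82, without WT stimulated replicate 2, clone 2 uninduced replicate 2, clone 2 stimulated replicate 3), *Ifi44* (-1.35 to -1.32, without WT stimulated replicate 3, clone 2 uninduced replicate 3, clone 2 stimulated replicate 1, clone 2 stimulated replicate 3) and *Dhx58* (1.45, without WT stimulated replicate 1). Between stimulated clones they concerned *Psmb9* (4.34 to 4.91, without clone 1 stimulated replicate 1, clone 1 stimulated replicate 3, clone 2 stimulated replicate 1, clone 2 stimulated replicate 2, clone 2 stimulated replicate 3), *Tap1* (0.91 to 0.99, without clone 1 stimulated replicate 2, clone 2 stimulated replicate 3), *Stat2* (-0.96, without clone 2 stimulated replicate 1) and *Ifit2* (-0.90, without clone 1 stimulated replicate 2). Groups with no or few counts, such as stimulated clone 1 for *Psmb8*, allow bounds or wide intervals only. The causes of these changes were not tested.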
